A study of Homo sapiens with 12 samples.

Results

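The response of SK-OV-3 cells to doxorubicin alone was examined. The SK-OV-3 line derives from a human ovarian carcinoma, and doxorubicin, an anthracycline, traps topoisomerase II on DNA and so breaks it. The comparison set 3 libraries of cells kept for 24 h in doxorubicin at 300 nM against 3 libraries of cells kept for 24 h in the vehicle DMSO, out of 12 libraries in the study. The other 6 libraries came from cells given the FAK inhibitor IN10018 at 3 μM, alone (3 libraries) or with doxorubicin at 300 nM (the combination, 3 libraries), also for 24 h, and they entered the estimate of the spread behind every p-value and gave a second pair of groups that differ in doxorubicin. All groups are of 1 cell line, and neither labels nor methods state that separate dishes were treated for each library, so a p-value here covers the spread among libraries, which may be technical. The study profiled transcripts to look into the mechanism of the drug pair. Each value is an FPKM, a fragment count divided by transcript length and by library size, so levels can be set side by side between genes. Of 59391 genes in the files, 10213 reached 1 FPKM or more in 3 or more of these 6 libraries and were tested with limma on log2(FPKM + 1). A gene under 1 FPKM in every library of 1 group could enter only through the other group, and so only if it was higher there. The number of members called in a list depends in part on this filter. Log2 fold changes are on that scale, doxorubicin minus DMSO, and understate the change of genes near or below 1 FPKM. Fold values are ratios of mean FPKM. A gene was called, and is said to have risen or fallen, where the p adjusted over all 10213 genes was under 0.05.

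Reads recovered from the FPKM came to 12460251, 11342475 and 10746993 in the DMSO libraries and to 11441227, 11669615 and 12303233 in the doxorubicin libraries. Along the leading axis of the spread within treatments, which held 58.3% of it, DMSO replicate 2 stood apart with a score of 35.8 against -21.3 and -14.4 for the other DMSO libraries, while the doxorubicin libraries lay between -4.36 and 6.34. IN10018 replicate 1 (35.2) and combination replicate 2 (24.7) stood apart in the same direction. The other IN10018 libraries scored -23.5 and -11.7, and combination replicates 1 and 3 scored -21.5 and -3.20. Combination replicate 1 thus lay nearly as far out as replicate 2, on the other side. The cells carried markers of an epithelial ovarian cancer, with KRT7, KRT8, KRT19 and ERBB2 each between 46.1 and 301 FPKM in all 6 libraries and PAX8 between 2.78 and 6.24, although WT1 and MUC16 were at or near 0. Defining leukocyte genes were at or near 0, with PTPRC at no more than 0.0266 FPKM and CD3E, CD14 and CD68 listed at 0 in all 6 libraries.

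Breaks made by a topoisomerase II poison are sensed by the kinases ATM and ATR, which halt the cell cycle, start repair and can switch on p53 target genes. The same breaks are known to activate NF-κB, a family of dimeric transcription factors held in the cytoplasm by IκB proteins, and the stress kinases that feed the AP-1 factors, and both families drive genes for chemokines and cytokines. Genes of DNA replication are known targets of E2F factors, which the retinoblastoma protein restrains. Lactate dehydrogenase and other enzymes of glycolysis are known targets of the hypoxia-inducible factors.

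Promoters of 4 genes are shown because their genes stand for 3 of the responses described, with a κB site in the chemokine CXCL8 and the cytokine IL6, an E2F site in the replication licensing gene CDC6 and hypoxia response letters in LDHA, the lactate dehydrogenase gene that fell. The windows run from 250 bases before to 50 after the RefSeq start of the gene, on GRCh38.p14 and all on the forward strand, at chr4:73740319-73740618 (CXCL8), chr7:22726950-22727249 (IL6), chr17:40287629-40287928 (CDC6) and chr11:18394313-18394612 (LDHA). Capitals mark the letters that matched a motif.

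CXCL8: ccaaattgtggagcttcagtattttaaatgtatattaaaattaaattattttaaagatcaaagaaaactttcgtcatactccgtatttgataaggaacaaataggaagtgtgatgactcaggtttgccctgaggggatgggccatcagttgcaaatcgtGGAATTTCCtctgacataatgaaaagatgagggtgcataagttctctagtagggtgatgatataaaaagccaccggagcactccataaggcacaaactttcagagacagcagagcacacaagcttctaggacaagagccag
IL6: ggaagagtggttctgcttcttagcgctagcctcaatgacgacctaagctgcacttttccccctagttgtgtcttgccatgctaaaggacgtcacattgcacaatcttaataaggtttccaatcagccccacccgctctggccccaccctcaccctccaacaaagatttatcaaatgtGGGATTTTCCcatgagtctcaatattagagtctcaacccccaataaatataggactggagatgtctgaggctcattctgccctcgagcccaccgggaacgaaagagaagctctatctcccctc
CDC6: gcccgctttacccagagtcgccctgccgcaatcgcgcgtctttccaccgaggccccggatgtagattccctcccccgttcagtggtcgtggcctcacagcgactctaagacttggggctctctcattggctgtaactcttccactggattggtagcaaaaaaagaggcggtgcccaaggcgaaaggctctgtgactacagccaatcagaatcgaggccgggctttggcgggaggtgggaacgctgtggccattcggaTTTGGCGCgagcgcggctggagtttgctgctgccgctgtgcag
LDHA: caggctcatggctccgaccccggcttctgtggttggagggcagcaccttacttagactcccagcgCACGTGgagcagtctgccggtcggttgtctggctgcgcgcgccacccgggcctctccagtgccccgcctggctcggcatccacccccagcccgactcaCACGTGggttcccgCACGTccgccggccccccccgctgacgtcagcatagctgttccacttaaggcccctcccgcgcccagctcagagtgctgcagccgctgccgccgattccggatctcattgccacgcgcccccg

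The κB match of CXCL8, GGAATTTCC, begins at -91 from the start, and that of IL6, GGGATTTTCC, at -73. In CDC6 the E2F letters TTTGGCGC begin at 8 after the start. LDHA holds the hypoxia letters on both strands at -185 and -87 and once more, as CACGT, at -73. The letters searched on both strands were GGG and TTCC set 3 bases apart or GGAATTTCC for κB, TTTGGCGC, TTTCCCGC or TTTCGCGC for E2F, ACGTG for the hypoxia response, and TGAC and GC set 3 bases apart for the antioxidant response that NRF2 binds. None of the 4 windows holds the antioxidant letters. No printed capital belongs to more than 1 of these sets.

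A promoter of this kind was found for 504 of the 682 genes that rose, 153 of the 242 that fell and 7440 of all genes tested. The κB letters were in 6.70% of all 27305 promoters in the table, in 7.88% of those of genes tested, in 8.73% of those of genes that rose and in 5.88% of those of genes that fell. Among called chemokine and cytokine genes 7 of 10 promoters held them (CXCL1, CXCL2, CXCL3, CXCL8, CXCL10, IL6 and IL32), and among called NF-κB genes 2 of 5 (NFKBIA and TNFAIP3). The E2F letters were in 2.79% of all promoters, 5.20% of those of genes tested, 8.93% of those of genes that rose and 2.61% of those of genes that fell. Of the replication genes tested, 16 of 36 promoters held them, and of those called 6 of 19 (MCM7, CDC6, CDT1, GINS3, RFC3 and LIG1). The hypoxia letters were in 21.6% of all promoters, 28.1% of those of genes tested, 26.8% of those of genes that rose and 22.2% of those of genes that fell, and in 9 of 21 tested and 2 of the 6 called glycolysis and hypoxia genes (LDHA and PGK1 among the called). The antioxidant letters were in 13.6% of all promoters, 15.6% of those of genes tested, 16.7% of those of genes that rose and 12.4% of those of genes that fell, in 4 of 15 promoters of the NRF2 genes tested and in 0 of the 3 of those called. A match is a description of the letters and not of a factor bound there.

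With doxorubicin 682 genes rose (6.68% of the genes tested) and 242 fell (2.37%), 924 in all (9.05%). The counts in the lists below are to be read beside these shares. Genes of chemokines, of AP-1 factors and of DNA replication were among those that rose, and genes of HOX factors, of antioxidant enzymes and of glycolysis among those that fell. The raised genes moved further. Their median log2 fold change was 1.00, 340 of them (49.9%) changed by at least 1 and 32 by at least 2, up to 4.29. The lowered genes had a median of -0.76, with 46 of 242 (19.0%) at 1 or more, none at 2 and a largest fall of 1.69. The median of all genes tested was -0.0046, and the share of called genes that were higher was 73.8%, or 63.8% after median-ratio scaling (818 higher, 464 lower) and 55.8% after quantile normalization (848 and 672).

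**Figure D1:**
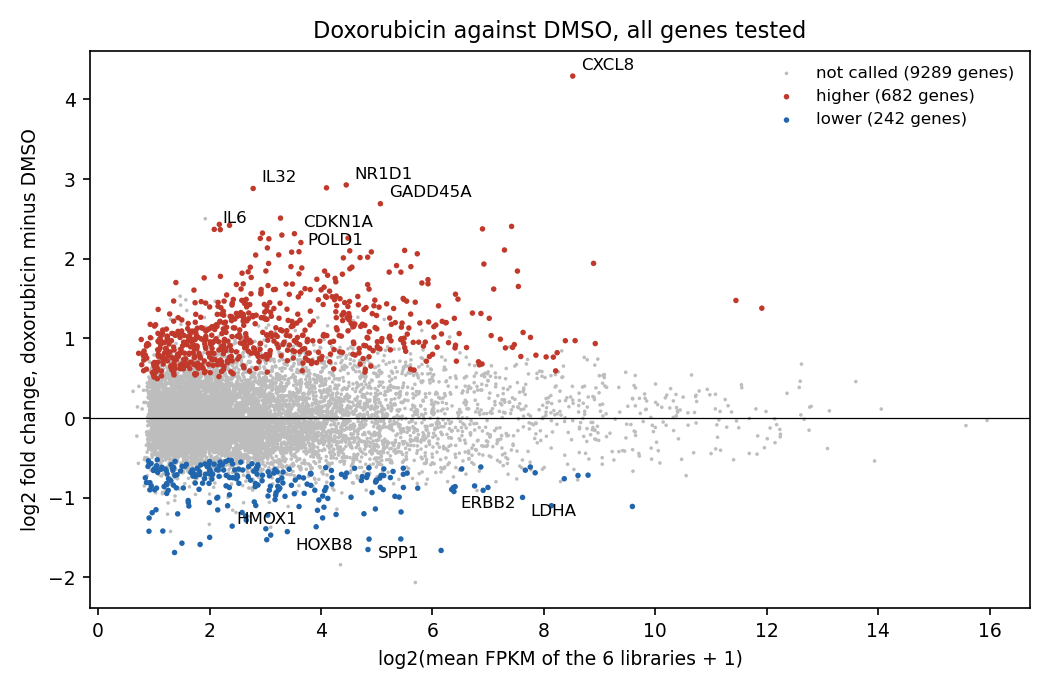
Log2 fold change of each of the 10213 genes tested (y axis, doxorubicin minus DMSO) against the log2 of its mean FPKM plus 1 over the 6 libraries (x axis). Red points are the 682 genes that rose and blue points the 242 that fell, and the red points reach 4.29 at CXCL8 while no blue point falls by more than 1.69.

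All 682 raised genes and 241 of the 242 lowered genes had 3 doxorubicin values outside the range of the 3 DMSO values, as had 19.6% (higher) and 12.4% (lower) of all genes tested. The genes were called on a small p from these same values, so this separation largely follows from the call and is no further support for it. Without the 3 libraries that stand apart, 1302 genes were higher (12.7% of the genes tested) and 1614 lower (15.8%), and these held 673 of the 682 and 236 of the 242. Those 3 libraries were picked by their place on the leading axis of the spread within treatments, in these same data. Leaving them out takes away much of that spread, so calls kept or gained there, also in the lists below, are no separate support. When each of the 6 libraries was left out in turn, 268 of the raised genes (39.3%) and 34 of the lowered genes (14.0%) passed every time. The lowered genes of that kind that are named below were SPP1, HOXB8, AHNAK2, CTHRC1, MFAP5, MMP13, APOL1, APOL2, HMOX1, TALDO1, TPD52L1, ARL6IP5 and FOXS1, and every other lowered gene named lost its call without at least 1 of the 6 libraries. Of the raised members, 6 of 11 chemokine and cytokine genes, 3 of 7 NF-κB genes, 7 of 11 AP-1 and immediate early genes and 5 of 6 p53 target genes passed every time.

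CXCL8, which encodes the neutrophil chemokine interleukin-8 (chromosome 4, 73740506 to 73743716, GRCh38), showed the largest rise. Its level was 33.7, 32.5 and 37.6 FPKM with DMSO and 713, 754 and 624 FPKM with doxorubicin. Every treated library was far above every control, a 20.2-fold difference with a log2 fold change of 4.29 (SE 0.32 and adjusted p = 1.1e-05). IL6, a cytokine that acts through STAT3, went from 0.465, 0.213 and 0.450 FPKM to 5.66, 6.92 and 5.73 FPKM. IL32, a proinflammatory cytokine, went from 0.275, 1.07 and 0.667 FPKM to 11.4, 11.4 and 10.4 FPKM. Both genes were thus low before treatment and many times higher after it, with log2 fold changes of 2.37 (SE 0.16 and adjusted p = 7e-06) and 2.88 (SE 0.25 and adjusted p = 4.4e-05).

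Of 15 chemokine and cytokine genes tested, 11 rose and 1 fell, and the median log2 fold change was 0.99. IL1A, the alarmin interleukin-1 alpha, rose 3.77-fold. CXCL1, CXCL2 and CXCL3, which like CXCL8 bind the receptor CXCR2 on neutrophils, rose by 0.96, 1.21 and 1.04 on the log2 scale. CXCL10, which draws T cells, was at most 0.225 FPKM in a DMSO library and between 1.09 and 1.38 FPKM with doxorubicin (adjusted p = 0.0037). IL11 and LIF, cytokines of the IL6 family, rose by 1.15 and 0.95, and IL18, a cytokine that inflammasomes release, by 0.85. TNFSF10, the gene of the death ligand TRAIL, was the member that fell, from 10.5, 7.12 and 8.35 FPKM to 4.22, 3.96 and 2.46 FPKM (log2 fold change -1.10, adjusted p = 0.0077). CSF1, CCL28 and TNFSF9 had log2 fold changes of 0.30, -0.30 and 0.08 and did not pass. The other 15 listed members were below the filter, among them TNF, with at most 0.263 FPKM in DMSO and 2.14, 0.460 and 1.02 FPKM with doxorubicin. IL6, CXCL3 and CXCL10 were under 1 FPKM in every DMSO library and entered the test only through doxorubicin libraries. The count and median of the list are thus partly set by the filter. The same holds for TNFAIP3, ATF3, AEN, EXO1, ANKRD1 and LYZ in the lists below.

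NF-κB subunits, inhibitors and other genes of the pathway rose in 7 of 15 tested, none fell, and all 15 values were positive (median 0.74). RELB, the subunit of the alternative pathway, was 2.69, 3.22 and 3.76 FPKM with DMSO and 20.6, 14.0 and 16.3 FPKM with doxorubicin. Its partner NFKB2 was 1.46, 1.66 and 2.21 FPKM against 10.6, 9.69 and 11.0 FPKM. These subunits rose by 2.08 and 2.05, whereas RELA of the classical pathway rose by 0.74 (adjusted p = 0.044) and NFKB1 had a log2 fold change of 0.41 that did not pass (adjusted p = 0.30). Among the inhibitors, NFKBIE rose by 1.84, NFKBIB by 1.04, NFKBIA by 0.71 and the deubiquitinase TNFAIP3 (A20) by 1.47. The call of NFKBIA was lost when DMSO replicate 1 or any doxorubicin library was left out.

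The AP-1 family and other immediate early factors, which switch on within minutes of growth factors or stress, rose in 11 of 17 tested, and all 17 values were positive (median 1.02). ATF3, a stress-induced repressor and partner of JUN, was 0.556, 0.196 and 0.507 FPKM with DMSO and 6.86, 6.77 and 6.22 FPKM with doxorubicin (log2 fold change 2.43, SE 0.16 and adjusted p = 7e-06). JUN, the core AP-1 subunit, was 4.73, 3.60 and 4.68 FPKM against 17.8, 15.6 and 14.8 FPKM. KLF10, a zinc finger gene induced by TGF-β, was 10.02, 5.49 and 9.96 FPKM against 33.5, 31.4 and 28.9 FPKM. The treated libraries of these genes lay close together and clear of the controls. FOSL1 and FOSL2, the FOS-related partners of JUN, rose by 1.498 and 1.43, EGR1 by 1.49, JUND by 1.13, MAFF by 1.09, KLF4 by 1.02, KLF6 by 0.94 and MYC by 0.90. FOS, FOSB, EGR2, EGR3, NR4A1 and NR4A2 were below the filter.

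Of 25 tested p53 target genes, 6 rose, none fell and the median was 0.30. GADD45A, a stress gene of growth arrest and repair (chromosome 1, 67685061 to 67688338), was 9.42, 6.96 and 7.68 FPKM with DMSO and 61.8, 52.9 and 56.3 FPKM with doxorubicin, a 7.10-fold rise (log2 fold change 2.69, SE 0.23 and adjusted p = 4.1e-05). CDKN1A, the gene of the cyclin-dependent kinase inhibitor p21, was 2.34, 3.15 and 2.96 FPKM against 21.1, 13.8 and 19.6 FPKM. PIDD1, a death domain protein that activates caspase-2, was 1.92, 2.86 and 2.22 FPKM against 15.9, 13.5 and 16.6 FPKM. These 3 genes rose more than 6-fold, and FDXR, a mitochondrial reductase, AEN, an exonuclease, and BBC3, the BCL2 family member PUMA, rose by 1.24, 1.01 and 0.74. BBC3 lost its call when any 1 of 5 of the 6 libraries was left out. Other targets did not pass, with log2 fold changes of 0.56 for the cytokine GDF15, 0.37 for the death effector BAX, 0.30 for the phosphatase PPM1D and 0.03 for PHLDA3, and MDM2, a ubiquitin ligase, was below the filter at 1.23 FPKM with DMSO and 0.852 FPKM with doxorubicin (group means).

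**Figure D2:**
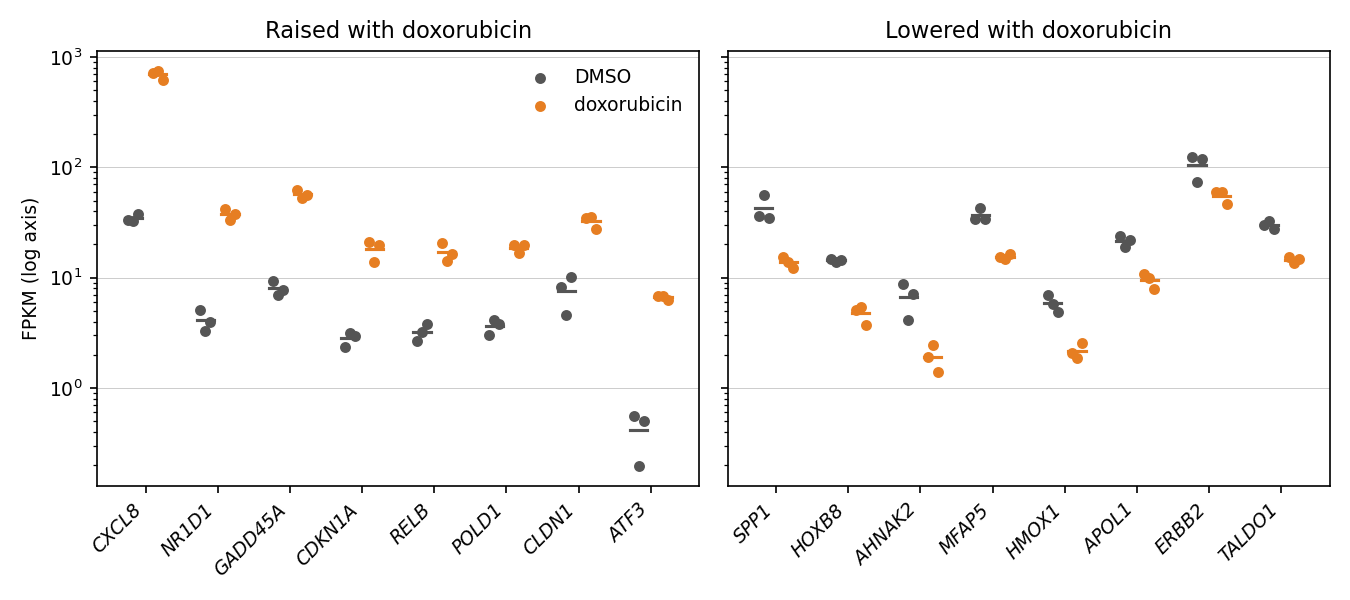
FPKM in each library (points, log axis) of 8 genes that rose and 8 that fell, with the group mean as a bar, for DMSO (grey) and doxorubicin (orange). In every gene drawn the 3 doxorubicin libraries lie outside the range of the 3 DMSO libraries, from 20.2-fold higher in CXCL8 to 3.46-fold lower in AHNAK2. The rule that named these genes required such separation.

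Among death receptors, their ligands and the BCL2 family, 3 of 19 rose and 2 fell (median 0.02). TNFRSF12A, the receptor of the cytokine TWEAK, was already high at 1167, 1643 and 1658 FPKM and reached 4334, 3867 and 4091 FPKM (log2 fold change 1.48, adjusted p = 2.7e-04). BIK, a BH3-only killer protein, rose by 0.95. TNFRSF10D, a decoy receptor of TRAIL, fell by 0.82, and TNFRSF1A, the main TNF receptor, by 0.88, from 11.2, 11.7 and 11.2 FPKM to 6.83, 5.67 and 4.83 FPKM.

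Among clock genes NR1D1 moved furthest. NR1D1, the circadian repressor REV-ERB alpha (chromosome 17, 40092787 to 40100725), was 5.13, 3.25 and 3.997 FPKM with DMSO and 42.0, 33.6 and 37.4 FPKM with doxorubicin, a 9.14-fold rise with a log2 fold change of 2.93 (SE 0.22 and adjusted p = 1.3e-05). THRA, which overlaps it on the other strand, had a log2 fold change of -0.53 and was not called. NFIL3, a repressor that competes with D-box activators, rose by 1.26 and CIART, a repressor of CLOCK and BMAL1, by 0.63. Only these 3 of 15 clock genes passed the test (median 0.08), and NR1D2, the close relative of NR1D1, was 3.75 FPKM on average with DMSO and 3.83 FPKM with doxorubicin.

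Stress genes of ATF4 and the unfolded protein response were mixed, with 4 of 18 higher, 1 lower and a median of -0.05. PPP1R15A, the phosphatase subunit GADD34 that reverses the translation block, rose by 1.11, the death-linked factor DDIT3 (CHOP) by 1.20, the pseudokinase TRIB3 by 1.01 and the factor XBP1 by 0.62. DDIT4, an inhibitor of mTORC1, fell from 19.3, 22.2 and 18.2 FPKM to 9.36, 9.93 and 8.43 FPKM. No doxorubicin library of DDIT4 reached 10 FPKM and no control was under 18. The call of DDIT3 was lost without DMSO replicate 1 or 3 or doxorubicin replicate 3, and those of TRIB3 and XBP1 without any of the 6 libraries.

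DNA replication held more called genes than any other of the 34 lists, 21 of 42 higher and none lower, with 39 positive values and a median of 0.65. POLD1, the catalytic subunit of polymerase delta (chromosome 19, 50384204 to 50418016), was 3.03, 4.09 and 3.81 FPKM with DMSO and 19.8, 16.6 and 19.6 FPKM with doxorubicin, a 5.13-fold rise (log2 fold change 2.09, SE 0.29 and adjusted p = 7.9e-04). CDT1, which loads the MCM helicase, was 6.25, 5.53 and 6.07 FPKM against 22.3, 18.4 and 26.6 FPKM. CDC6, its partner in loading, was 3.25, 1.74 and 2.17 FPKM against 7.17, 7.89 and 6.72 FPKM. In these bulk libraries more cells in a phase of the cycle and more RNA per cell cannot be told apart. The licensing inhibitor GMNN, which binds CDT1, rose by 0.68. Other raised members were the helicase parts MCM7, MCM10, CDC45 and GINS3, the origin proteins ORC1 and ORC6, the primase PRIM1, the clamp loader subunits RFC2, RFC3 and RFC5, the lagging-strand enzymes FEN1 and LIG1, the single-strand binders RPA2 and RPA3, the fork protector TIPIN and the nucleotide enzymes RRM2 and TK1, between 0.54 and 1.70. Of the 21, 8 passed with each library left out in turn, and 17 of the 42 were higher without DMSO replicate 2.

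**Figure D3:**
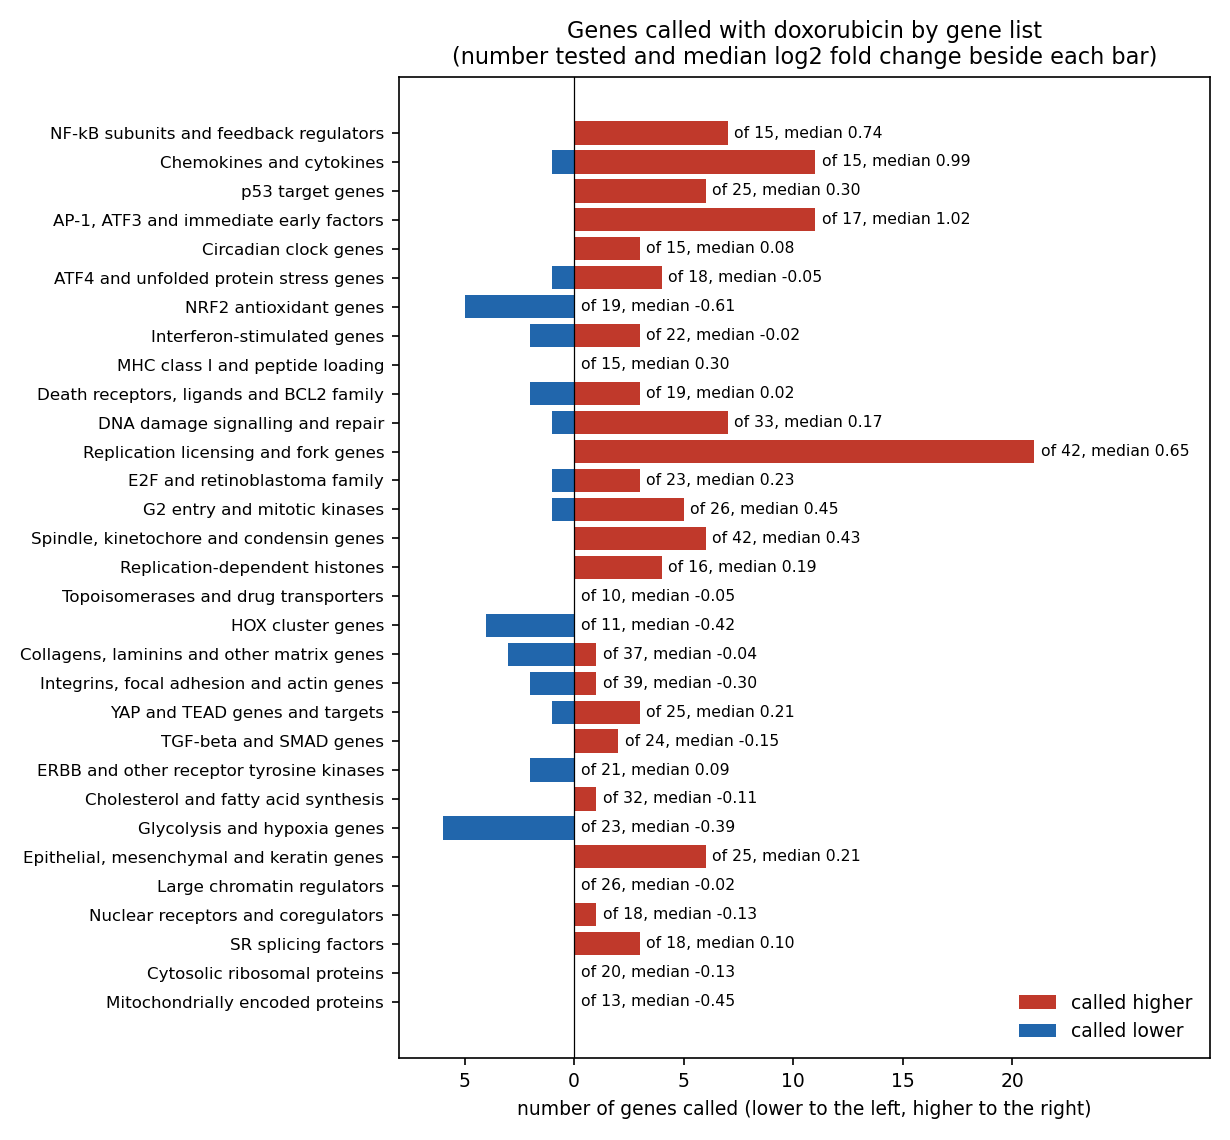
Number of genes in each list that were called higher (red, to the right) or lower (blue, to the left) with doxorubicin, with the number tested and the median log2 fold change of the list beside each bar. Replication genes reach 21 of 42 higher, and glycolysis and hypoxia genes 6 of 23 lower. Over all genes tested 6.68% were higher and 2.37% lower.

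E2F1, the activating E2F factor, was 18.1, 31.8 and 21.8 FPKM with DMSO and 78.3, 52.0 and 70.7 FPKM with doxorubicin, and E2F2 and MYBL2, a subunit of the complex that drives mitotic genes, rose by 0.82 and 0.95. TFDP2, a dimer partner of E2F factors, fell by 0.55, and 19 of the 23 genes of the E2F and retinoblastoma list did not pass (median 0.23). RB1 itself had a log2 fold change of -0.27 (adjusted p = 0.69). The call of E2F1 was lost without DMSO replicate 1 or 3 or doxorubicin replicate 1 or 3.

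Repair and damage signalling genes rose in 7 of 33 tested and fell in 1 (median 0.17). EXO1, a nuclease of end resection and mismatch repair, rose 3.65-fold from 0.873, 0.533 and 0.787 FPKM to 2.56, 2.88 and 2.57 FPKM. The homologous recombination genes BRCA1, BRIP1, RAD51C and XRCC3 rose by 0.69 to 1.21, and the checkpoint adaptor CLSPN by 0.65. XRCC6, the Ku70 subunit of end joining, fell from 58.5, 48.6 and 55.8 FPKM to 33.8, 31.8 and 32.8 FPKM (log2 fold change -0.71, adjusted p = 0.030). Of the 8 called genes, EXO1 and BRIP1 kept their calls with each library left out in turn.

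At the entry to mitosis 5 of 26 genes rose and 1 fell (median 0.45). PKMYT1, a kinase that holds CDK1 inactive, was 1.63, 1.81 and 2.26 FPKM with DMSO and 14.1, 10.6 and 13.7 FPKM with doxorubicin, a 6.75-fold rise. It shares 4245 bases with PAQR4 on the other strand, which also rose, by 1.02. CDK1, the mitotic kinase, rose by 0.61 (adjusted p = 0.049), MASTL, which blocks the phosphatase that opposes it, by 1.14, CKS1B, a CDK subunit, by 1.32 and ESPL1, the separase that splits cohesin, by 0.53. PLK1, the polo-like kinase of mitotic entry, was the member that fell, from 5.65, 5.57 and 5.79 FPKM to 3.91, 2.65 and 3.26 FPKM (log2 fold change -0.65, adjusted p = 0.044). CCNB1, the mitotic cyclin, had a log2 fold change of -0.28 (adjusted p = 0.42). The calls of CDK1, ESPL1 and PLK1 were lost when any of the 6 libraries was left out.

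Spindle, kinetochore and condensin genes rose in 6 of 42 tested, none fell, and 39 values were positive (median 0.43). The kinesins KIF2C, KIF15, KIF18A and KIF18B, which shape the spindle, rose by 0.89, 0.70, 0.82 and 0.67, and the kinetochore proteins SKA1 and SKA3 by 0.98 and 0.72. None of these 6 kept its call with every library left out in turn. Replication-dependent histone genes rose in 4 of 16 tested (median 0.19), with H4C3 at 2430.4, 1664 and 2389 FPKM against 5298, 5347 and 6006 FPKM, and H1-5, H4C2 and H2AC20 rising by 1.20, 1.56 and 1.03. None of these 4 kept its call with every library left out in turn, and that of H4C3 was lost without any of the 6 (adjusted p from 0.0946 to 0.149). Histone mRNAs of this class lack poly(A) tails, and copies of the histone genes share much sequence.

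Epithelial, mesenchymal and keratin genes rose in 6 of 25 tested (median 0.21). The tight junction gene CLDN1 was 8.18, 4.62 and 10.1 FPKM with DMSO and 35.0, 35.5 and 27.4 FPKM with doxorubicin, a 4.28-fold rise, and CLDN3 and CLDN4 rose by 1.37 and 0.74. KRT80, a keratin of differentiating epithelia, rose from 9.87, 7.58 and 8.04 FPKM to 29.4, 23.3 and 26.1 FPKM. SNAI2, a repressor that drives the mesenchymal programme, rose by 1.61, in the same list and direction as these epithelial genes, and KRT7 by 1.07 with its call lost without any of 5 libraries. Among YAP and TEAD targets ANKRD1, a muscle-type nuclear adaptor, rose 12.3-fold from at most 0.564 FPKM to 3.62, 2.47 and 2.96 FPKM, GADD45B by 1.13 and the matrix protein CCN1 by 1.23, while NT5E, the ectonucleotidase CD73, fell by 0.86, in 25 tested (median 0.21). ID3, an inhibitor of basic helix-loop-helix factors, rose from 58.9, 126 and 62.4 FPKM to 319, 222 and 312 FPKM, and with TGIF1, a SMAD corepressor that rose by 0.52, it made up the 2 of 24 TGF-β and SMAD genes that passed (median -0.15). That share, 8.33%, lay near the 6.68% of all genes tested that rose. The calls of CLDN4 and TGIF1 were lost when any of the 6 libraries was left out.

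The remaining genes among the 30 largest increases were of several kinds. LYZ, lysozyme, was 0.273, 0.750 and 0.422 FPKM with DMSO and 3.22, 12.7 and 7.37 FPKM with doxorubicin, and the treated libraries differed widely among themselves. LYZ was also the only listed leukocyte marker that was tested. It was under 1 FPKM in every DMSO library and entered the test only through doxorubicin libraries. The summed level of the 10 markers was 0.287 to 1.46 FPKM with DMSO and 3.22 to 13.0 FPKM with doxorubicin, nearly all of it LYZ, since the other 9 stayed below 1 FPKM in every library. AP5B1 and AP5Z1, subunits of the adaptor complex of late endosomes, rose by 2.26 and 1.94. NOXA1, an activator of NADPH oxidase, rose by 2.26, the tumour suppressor RASSF1 by 2.20, the cohesion-linked clamp loader CHTF18 by 2.14 and NAGLU, a lysosomal glucosaminidase, by 2.02. Also among the 30 were IRF2BP1, a corepressor, APBA3, an adaptor of the amyloid precursor protein, SPATA2L, ZNHIT2, TEDC1, the mRNA export factor THOC6, the proline enzyme PYCR3, the mitochondrial RNA methyltransferase MRM1 and the repressor ERF, each between 1.90 and 2.10.

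SPP1, which encodes the secreted phosphoprotein osteopontin (chromosome 4, 87975650 to 87983426), was 36.5, 55.6 and 35.0 FPKM with DMSO and 15.4, 13.8 and 12.3 FPKM with doxorubicin. The lowest control was more than 2 times the highest treated library, and the log2 fold change was -1.52 (SE 0.24 and adjusted p = 0.0020). MFAP5, a microfibril protein (chromosome 12, 8637346 to 8662888), was 34.2, 43.2 and 34.0 FPKM against 15.3, 14.8 and 16.3 FPKM. CTHRC1, a secreted collagen repeat protein, was 6.67, 8.03 and 8.58 FPKM against 3.76, 2.16 and 2.42 FPKM, and MMP13, a collagenase, 6.21, 4.39 and 4.70 FPKM against 2.38, 1.21 and 1.69 FPKM. These genes fell 2.40-fold, 2.79-fold and 2.90-fold. Of 37 collagens, laminins and other matrix genes tested, 3 fell (SPP1, MFAP5 and COL1A1), LAMB3, a laminin chain of epithelial basement membrane, rose by 0.96, and the median was -0.04. LUM, the keratan sulfate proteoglycan lumican, fell from 16.0, 12.6 and 11.2 FPKM to 7.56, 5.68 and 7.49 FPKM. LUM and COL1A1 were also the 2 tested members of the 10 fibroblast and endothelial markers, whose summed level was 14.1 to 18.8 FPKM with DMSO and 6.96 to 8.87 FPKM with doxorubicin. COL1A1 was under 1 FPKM in every doxorubicin library and so entered the test only through DMSO libraries. The defining genes PDGFRA, DCN, PECAM1, VWF and CDH5 were at or near 0 in all 6 libraries.

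HOX genes, which encode the homeobox factors of body axis identity, had no tested member above 0. Of 11 tested, 4 fell and the median was -0.42. HOXB8 (chromosome 17, 48611377 to 48614939) was 14.8, 13.9 and 14.3 FPKM with DMSO and 5.09, 5.38 and 3.75 FPKM with doxorubicin, a 3.02-fold fall with a log2 fold change of -1.43 (SE 0.17 and adjusted p = 4.3e-04). Its neighbours HOXB5 and HOXB6 fell by 0.82 and 0.78, and HOXD8, in another cluster, by 0.65. HOXB2, HOXB3, HOXB4, HOXB7 and HOXB9 lay between -0.16 and -0.42 and did not pass. HOXB8 overlaps HOXB7 on the same strand, and HOXB5 and HOXB6 each overlap HOXB3 on the same strand, so reads may have been divided between overlapping genes. Of the 4 calls only that of HOXB8 held with each library left out in turn, and 6 of the 11 genes were lower without the libraries that stand apart, as were 15.8% of all genes tested.

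NRF2 target and antioxidant genes fell in 5 of 19 tested, none rose, and 18 of 19 values were negative with a median of -0.61. HMOX1, the heme oxygenase, was 6.91, 5.75 and 4.86 FPKM with DMSO and 2.09, 1.86 and 2.58 FPKM with doxorubicin, a 2.68-fold fall (log2 fold change -1.10, SE 0.22 and adjusted p = 0.0073). TALDO1, the transaldolase of the pentose phosphate pathway, was 29.8, 32.5 and 27.6 FPKM against 15.2, 13.5 and 14.9 FPKM. FTH1, the ferritin heavy chain, was 1024, 1285 and 856 FPKM against 550, 421 and 482 FPKM. No treated library of these genes overlapped a control. AKR1C1 and AKR1C3, aldo-keto reductases, fell by 1.22 and 1.14, and PRDX1, a peroxiredoxin outside the list, by 1.10, but these and FTH1 have near-identical copies or pseudogenes and their levels are uncertain. The classical targets NQO1, GCLM, GCLC, TXNRD1 and SLC7A11 had log2 fold changes from -0.18 to -0.61 and did not pass. Without the libraries that stand apart 11 of the 19 genes were lower (15.8% of all genes tested). Only HMOX1 and TALDO1 of the 5 passed with each library left out in turn.

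Glycolysis and hypoxia genes fell in 6 of 23 tested, none rose, and 19 values were negative (median -0.39). LDHA, whose promoter is printed above, was 318, 194 and 274 FPKM with DMSO and 153, 116 and 119 FPKM with doxorubicin (log2 fold change -0.997, SE 0.24 and adjusted p = 0.019). LDHA shares 1123 bases on the same strand with AC084117.1, which also fell (log2 fold change -1.65), so reads may have been divided between them. PKM, the pyruvate kinase, fell from 121, 98.3 and 106 FPKM to 65.6, 56.4 and 55.8 FPKM. HK1, a hexokinase, fell by 0.84, PGK1 and PGAM1, which act in the middle of the pathway, by 0.67 and 0.63, and CA12, a carbonic anhydrase of the cell surface, from 2.61, 1.73 and 2.50 FPKM to 0.962, 0.796 and 0.697 FPKM. CA12 was under 1 FPKM in every doxorubicin library and so entered the test only through DMSO libraries. GAPDH, ENO1 and TPI1 had values of -0.78, -0.53 and -0.54 and did not pass, whereas PFKL, a phosphofructokinase, had 0.99 (adjusted p = 0.056). The hypoxia genes VEGFA, ADM and HIF1A were at -0.07, 0.42 and -0.01. LDHA, PKM, PGK1 and PGAM1 have processed pseudogenes, and none of the 6 calls held with every library left out in turn, with that of CA12 lost only without doxorubicin replicate 3.

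ERBB2, the receptor tyrosine kinase HER2 (chromosome 17, 39687914 to 39730426), was 124, 73.9 and 119 FPKM with DMSO and 59.5, 59.9 and 46.1 FPKM with doxorubicin. The DMSO library that stands apart was the lowest control yet still above every treated library, and the log2 fold change was -0.90 (SE 0.26 and adjusted p = 0.044). MIEN1, a membrane protein gene that overlaps the end of ERBB2 on the other strand, was 172, 157 and 164 FPKM against 92.8, 91.8 and 83.2 FPKM. Whether reads were counted by strand is not given, and 1931 bases are shared with MIEN1. PGAP3, also on the other strand, shares 8884 bases with ERBB2 and was not called. Of the other tested receptor tyrosine kinases and their neighbours none of 19 passed (list median 0.09), with GRB7, an ERBB2 adaptor, at -0.62 (adjusted p = 0.065), EGFR at 0.10 and MET at -0.08. The call of ERBB2 was lost without any library except DMSO replicate 2, and that of MIEN1 without doxorubicin replicate 3.

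Cytoskeletal and adhesion genes had mostly negative values, 30 of 39 with a median of -0.30, but 2 fell and 1 rose. AHNAK2, a giant scaffold protein, was 8.73, 4.17 and 7.11 FPKM with DMSO and 1.92, 2.46 and 1.41 FPKM with doxorubicin, a 3.46-fold fall (adjusted p = 0.0063). ACTG1, cytoplasmic gamma actin, fell by 0.72 and has near-identical copies, and BCAR1, the FAK substrate p130Cas, rose by 1.26. FLNA, the actin crosslinker filamin A, was 82.5, 50.6 and 68.1 FPKM against 39.2, 40.2 and 31.7 FPKM and missed the threshold (adjusted p = 0.060). PTK2, the gene of FAK, had a log2 fold change of -0.31 (adjusted p = 0.49). Without the libraries that stand apart 18 of the 39 were lower, in a fit that called 1614 genes lower (15.8%) in place of 242. Outside the list, MSN, the membrane-actin linker moesin, fell from 66.8, 42.9 and 57.0 FPKM to 30.2, 27.2 and 23.9 FPKM, GJA1, the gap junction protein connexin 43, by 1.11, RALB, a small GTPase of exocytosis, by 0.91 and GNAI2, an inhibitory G protein subunit, by 0.90.

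Further genes among the 30 largest decreases were APOL1 and APOL2, apolipoprotein L genes that interferon induces, TPD52L1, ARL6IP5, the transcription factor FOXS1, TNKS1BP1, the melanosome GTPase RAB38, the sialyltransferase ST6GALNAC4, the endoplasmic reticulum chaperone FKBP7, the co-chaperone DNAJC12, SH3BGRL, SH3BGRL3, the sulfotransferase CHST2 and the lipid raft protein MAL. APOL1 was 24.0, 19.0 and 22.1 FPKM with DMSO and 10.7, 9.86 and 7.85 FPKM with doxorubicin, and the other named genes fell by 0.90 to 1.05. SH3BGRL3 was the most abundant of them, at 151, 169 and 147 FPKM against 95.2, 68.2 and 85.9 FPKM. Interferon-stimulated genes as a list were divided, with 3 of 22 higher, 2 lower and a median of -0.02. IRF7, the factor that amplifies interferon induction, rose from 3.96, 5.30 and 3.99 FPKM to 19.5, 16.2 and 18.02 FPKM, and IRF1 and the oligoadenylate synthetase OAS3 rose by 0.67 and 0.78. The antiviral genes IFIT1 and SAMD9 fell by 0.63 and 0.70, and ISG15 had a log2 fold change of 0.49 that did not pass (adjusted p = 0.30).

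Several groups held no called gene. None of 10 topoisomerases and drug transporters passed, and TOP2A, the target of the drug in dividing cells, was 28.2, 16.1 and 33.4 FPKM with DMSO and 44.3, 36.2 and 34.2 FPKM with doxorubicin (adjusted p = 0.26). TOP2B and TOP1 had log2 fold changes of -0.30 and 0.31. None of 15 MHC class I and peptide loading genes passed (median 0.30), and 4 genes of this list were higher without the libraries that stand apart (12.7% of all genes tested). Of the genes whose proteins mark immunogenic cell death, CALR was 47.8, 41.1 and 39.6 FPKM against 38.1, 38.3 and 33.3 FPKM, HMGB1 had a log2 fold change of -0.02 and HSP90B1 one of -0.11, and none passed. The study followed the exposure or release of these proteins, which RNA levels do not measure. Other lists held few calls, with MVD, an enzyme of the mevalonate pathway, 1 of 32 cholesterol and fatty acid genes (median -0.11), ESRRA, an orphan receptor of energy metabolism, 1 of 18 nuclear receptors and coregulators (median -0.13), and SRSF7, CLK1 and CLK4, a splicing factor and the kinases of its class, 3 of 18 SR splicing genes (median 0.10), all higher. None of these 5 calls held with every library left out in turn, and that of CLK4 was lost without any of the 6. No cytosolic ribosomal protein gene of 20 (median -0.13) and no large chromatin regulator of 26 (median -0.02) passed. The 13 mitochondrially encoded proteins all lay between -0.37 and -0.56 (median -0.45), with doxorubicin libraries below DMSO libraries in each of the 13, as in 12.4% of all genes tested, and none passed. They are cut from shared precursor transcripts and are not 13 separate observations. In the combination against IN10018 their median was 0.15, of the opposite sign, beside 0.21 over all genes tested.

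The raised and the lowered protein-coding genes differed in sequence features, as described here without a test. The median GC content of the longest transcript was 58.7% in the raised, 47.1% in the lowered and 47.5% in the uncalled genes, and the median length on the genome was 13.6, 26.0 and 31.8 kb. In the quartile of genes richest in GC 328 were higher (14.9%) and 28 lower, and in the poorest quartile 86 (3.91%) and 40. In the quartile with the shortest genes 276 were higher (12.6%) and 47 lower, while the quartile with the longest genes held 32 (1.46%) and 33 (1.501%). Chromosome 19 had 96 of its 664 tested genes higher (14.5%) and 3 lower, and chromosome X had 2 of 262 higher and 10 lower. GC balance differed among libraries. The log2 level of the GC-richest quartile less that of the poorest was 0.10, 0.86 and 0.25 in the DMSO libraries and 0.72, 0.60 and 0.76 in the doxorubicin libraries. The DMSO library that stands apart lay above all 3 treated libraries and the other controls below them, so the groups overlapped. When each library was corrected for GC content and length, a step chosen after the data had been seen, 617 of the 682 raised and 222 of the 242 lowered genes were called in the same direction, among 1232 higher and 1149 lower in all.

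**Figure D4:**
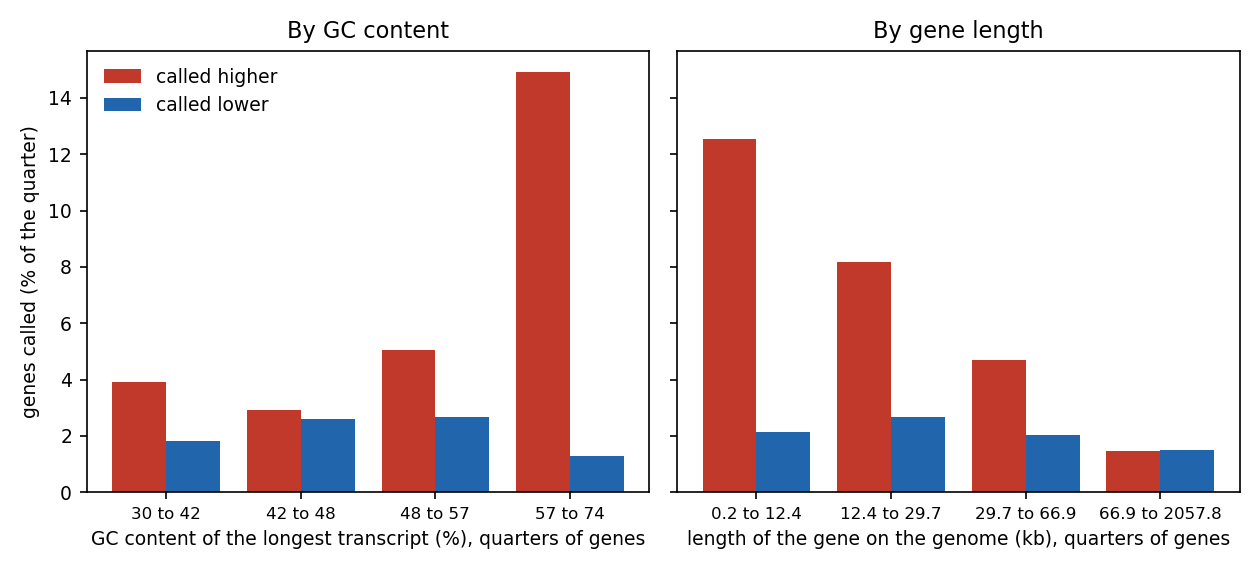
Percentage of protein-coding genes called higher (red) and lower (blue) in each quartile of genes by GC content of the longest transcript (left, %) and by length on the genome (right, kb). The share called higher reaches 14.9% in the GC-richest quartile and falls from 12.6% in the shortest to 1.46% in the longest genes.

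The libraries with IN10018 gave a second estimate of the doxorubicin effect, the combination minus IN10018, from samples that entered the first only through the shared estimate of the spread. Over all genes tested 15.4% were higher and 1.39% lower in it, and the median log2 fold change was 0.21, so changes there are to be read against that shift. Of the 682 raised genes, 670 were positive (70.3% of all genes were) and 560 were called higher (82.1%), with a median of 1.11. CXCL8 had a log2 fold change of 5.47, GADD45A 3.42, NR1D1 3.32, IL32 3.20 and NFKB2 2.73. Of the 242 lowered genes, 233 were negative (29.7% of all genes were) and 57 were called lower (23.6%), with a median of -0.39, where the first estimate gave -0.76. After median-ratio scaling 239 of the 242 were negative, as were 52.0% of all genes. HOXB8 had a log2 fold change of -1.21, HMOX1 -1.45, SPP1 -1.10 and MFAP5 -0.92 there, all called, whereas ERBB2 had -0.37, TNFSF10 -0.29 and LDHA -0.43, none of them called. PLK1 had a value of 0.24 where doxorubicin alone lowered it, and LYZ one of -0.79 where doxorubicin alone raised it, and neither passed.

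The difference between the effects was itself tested. No gene passed in limma (0.0% of genes tested), with a smallest adjusted p of 0.33, with 477 positive and 129 negative differences at an unadjusted p under 0.05, and none with voom weights on the recovered reads. A call in one pair of groups without a call in the other is therefore not shown to be a difference between them, nor are the effects shown to be equal.

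**Figure D5:**
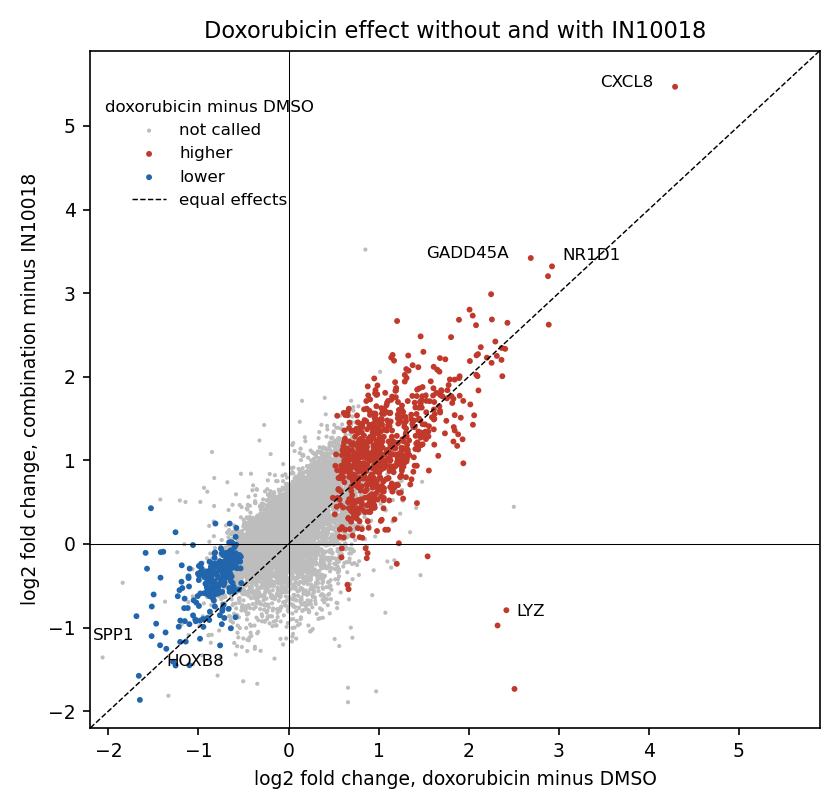
Log2 fold change of doxorubicin against DMSO (x axis) and of the combination against IN10018 (y axis) for each gene tested, from separate libraries, with the dashed line marking equal effects. Of the 682 genes that rose with doxorubicin alone (red) 670 lie above 0 on the y axis, and of the 242 that fell (blue) 233 lie below 0.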

How the data were processed

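RNA of the cells was checked on a Bioanalyzer, and the libraries, made with a directional kit, were read on an Illumina HiSeq. The methods name FASTQC, TopHat and Cuffdiff, and the submitters' processing notes add Cufflinks and hg38, without versions. The FPKM values deposited by the authors cover 60623 Ensembl genes per library, and the sources used here do not name the program behind them. They stood in whole-number ratios in 24090 of 24090 genes above 0 in at least 3 libraries (relative tolerance 3e-12), from which reads per library were recovered. Genes without a read made up 64.1% to 65.8% of a library of the 6 compared, which limits the test for low genes.

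Values of rows with a common symbol (93 symbols) were added up, and a gene entered the test if 3 or more of the 6 libraries had 1 FPKM or more. A linear model with 4 treatments was fitted to log2(FPKM + 1) over the full set of 12 libraries in limma 3.58.1 (R 4.3.3, 8 residual degrees of freedom, moderated with a mean trend), so the IN10018 and combination libraries shared in the estimate of the spread. Tests were two-sided with Benjamini-Hochberg adjustment over all genes tested. Gene positions and features come from GENCODE 29 (GRCh38), in which 58516 identifiers were found, and promoters from RefSeq (GRCh38.p14). Files were read with Python 3.11.15 and pandas 2.3.3 and figures drawn with matplotlib 3.10.9.

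Named genes were the 30 largest increases and 30 largest decreases among called protein-coding genes without near-identical copies, with a mean of at least 5 FPKM in the higher group and groups that do not overlap, up to 6 called members of each of 34 lists by smallest p, members that a statement needed, and genes the study names. Other members of a list are named in its account. Some genes that this rule names are left out of the text. The comparison and the lists were chosen with earlier results of these data known. The alternatives were pseudocounts of 0.1 and 0.5, no filter or one of 5 FPKM, median-ratio and quantile scaling, a fit on 6 libraries, libraries left out and a replicate block. A correction for GC content and length (splines with 5 degrees of freedom in each library) and voom on the recovered reads were added after seeing the data. The method was tested on simulated data.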

Additional observations from a re-analysis of the deposited data

How the results depend on the processing

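Of the 163 called genes that the naming rule chose, none changed direction under the alternatives run for them, of which the filter of 5 FPKM kept 124 genes. Other called genes in the text were not followed one by one. The 682 higher and 242 lower genes of doxorubicin against DMSO became 429 and 139 without a filter, 445 and 163 with a filter of 5 FPKM, 818 and 464 with median-ratio scaling, 848 and 672 with quantile normalization, 1302 and 1614 without the 3 libraries that stand apart, 1232 and 1149 after the GC and length correction, 899 and 301 with only the 6 libraries compared, and 682 and 235 with voom. With 1 library of any treatment left out, the counts ran from 308 to 948 higher and from 47 to 337 lower, with fewer libraries in each such fit. The 1569 higher and 142 lower genes of the combination against IN10018 became 702 and 82 with the stricter filter, 970 and 439 with median-ratio scaling, 921 and 534 with quantile normalization, 1674 and 274 without the libraries that stand apart, and 1436 and 1255 after the GC and length correction. With 1 library left out they ran from 786 to 1943 and from 62 to 191, the lowest without combination replicate 3. For the difference between the effects 0 genes became 2 without a filter, 1 with median-ratio scaling, 1 with quantile normalization and 0 to 2 with 1 library left out. The cause of these shifts was not tested.

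Whether the replicate numbers pair the samples is not stated, and the correlations could not settle it. Same-numbered libraries of all treatments correlated anywhere from -0.71 to 0.75. Deviations of same-numbered DMSO and doxorubicin libraries correlated at 0.07, -0.24 and -0.30, and with the replicate block 485 genes were higher and 104 lower, of which 483 and 102 were among those called without it. With the block the combination against IN10018 had 1216 higher and 96 lower genes.

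Of 163 called genes named by the rule, 8 lost their call with a pseudocount of 0.1, 4 with 0.5, 64 without a filter, 11 with median-ratio scaling, 4 with quantile normalization, 8 after the GC and length correction, 5 with voom, 50 with the replicate block, and 31 to 81 with a DMSO or doxorubicin library left out. HMGB1, which was not called, had -0.02 and turned to 0.0091 without DMSO replicate 2 and without the libraries that stand apart, 0.0241 without doxorubicin replicate 2 and 0.0135 after the GC and length correction. With 1 library left out it ran from -0.0656 to 0.0241. HSP90B1, also not called, turned to 0.0077 without DMSO replicate 1 and ran from -0.3059 to 0.0077.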

Other observations

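The neighbourhood of ERBB2 on chromosome 17 was looked at after its values were seen. Among the 13 genes tested within 250 kb of it, itself included, the 3 that fell were neighbours of each other, ERBB2 itself, the microRNA gene MIR4728 inside it and MIEN1, which overlaps its end. On the side before ERBB2, STARD3, a sterol carrier of endosomes, had a log2 fold change of 0.44 and PGAP3, an enzyme of GPI anchors, one of 0.35, and PPP1R1B had -0.43, and none of these passed. PGAP3 also overlaps ERBB2, by 8884 bases on the other strand. On the other side GRB7 had -0.62 and ORMDL3, a regulator of sphingolipid synthesis, -0.12. MIR4728 was 62.2 FPKM on average with DMSO and 22.2 FPKM with doxorubicin, and its reads cannot be told apart from those of ERBB2.

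Genes not annotated as protein-coding made up 13.9% of the genes tested (1420), 13.3% of those raised (91) and 24.0% of those lowered (58). Of 286 antisense genes tested, 26 rose (9.09%) and 8 fell (2.80%), and of 300 lincRNA genes 31 rose (10.3%) and 18 fell (6.0%), beside 6.68% and 2.37% of all genes tested. The levels of antisense genes are uncertain, since whether reads were counted by strand is not given.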
